A study of Mus musculus with 4 samples.

Results

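The genes described here encode the proteins of the cytosolic ribosome. They were chosen by name: symbols of Rps or Rpl followed by a digit, with Rplp0, Rplp1, Rplp2 and Rpsa, without symbols marked "-ps" and without the Rps6k kinase genes. The rule gave 86 of the 31053 genes counted, 34 with small subunit names and 52 with large subunit names. Rps19bp1, which encodes a protein that binds the small subunit protein Rps19, and Rpl7l1, which encodes a nucleolar protein of ribosome assembly, match the rule by name and stayed in. Fau and Rack1 encode ribosomal proteins under other names and are given apart. In all 4 libraries together Rpl39l had 120 UMIs and Rpl3l 1, and Rpl10l had 0, for which counting error allows up to 3. The other 83 genes passed the filter on low counts in every fit below.

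The cells were splenic B220+IgD- cells sorted 10 days after immunization with sheep red blood cells (SRBC), from 1 mouse per genotype and 1 droplet library per mouse. All mice, WT included, carried Cg1Cre+/-, which acts in B cells activated to form germinal centers (GCs). The WT mouse carried no floxed allele, the C mouse was Crebbp fl/+, the K mouse Kmt2d fl/+, and the CK mouse both. All were described as female, on a C57BL/6J background, 8 weeks old. The libraries held 8071 (WT), 9981 (C), 8105 (K) and 12852 (CK) barcodes with 33270825 to 39803865 UMIs each, and 143 barcode sequences occurred in more than 1 library. Genotype and library cannot be told apart with 1 mouse each, so genotypes were compared without a test. The deposited annotation names the stages of 9804 GC B cells: early centroblast (CB), CB, transitioning, centrocyte (CC), recycling and prememory. All other cells were grouped here by clusters made without ribosomal protein, immunoglobulin and mitochondrial genes, and named by marker genes. T-like cells, although the sort was for B220+, made up 1522 (WT), 1940 (C), 1708 (K) and 3161 (CK) barcodes, with summed CPM (counts per 1000000 UMIs) of 10 T cell markers of 9207 to 10043. In annotated GC B cells the same sum was 106 to 131.

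Each ribosome needs 1 copy of nearly every ribosomal protein, so their genes are expressed together and at high levels in most cells. Their mRNAs begin with a run of pyrimidines directly after the cap, the 5' terminal oligopyrimidine (TOP) tract, through which mTOR signalling and Larp1 control their translation. Myc raises ribosome production in activated lymphocytes, and GC B cells alternate between division as CBs and selection by T cells as CCs.

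The starts of the genes are shown first, because the TOP tract is the sequence feature that these genes are known to share. RefSeq starts on GRCm38.p6 matched 66 of the 86 genes. The lines below give 15 bases before and 15 bases from the start, 5' to 3' on the gene's strand, for the 5 matched genes with the largest CC over CB difference and for 2 pairs of like-named genes, with the longest unbroken run of C and T in capitals.
Rpl37, chr15:5116598-5116627, + strand: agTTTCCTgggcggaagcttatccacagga
Rpl12, chr2:32961697-32961726, + strand: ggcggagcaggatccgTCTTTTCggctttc
Rpl27a, chr7:109519180-109519209, + strand: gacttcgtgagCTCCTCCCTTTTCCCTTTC
Rpl38, chr11:114668565-114668594, + strand: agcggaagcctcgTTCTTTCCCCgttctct
Rpl34, chr3:130730384-130730413, - strand: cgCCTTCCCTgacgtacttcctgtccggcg
Rps27, chr3:90213634-90213663, - strand: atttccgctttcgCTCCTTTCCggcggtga
Rps27l, chr9:66946071-66946100, + strand: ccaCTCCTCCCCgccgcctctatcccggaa
Rpl36a, chrX:134585639-134585668, + strand: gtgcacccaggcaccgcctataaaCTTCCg
Rpl36al, chr12:69184053-69184082, - strand: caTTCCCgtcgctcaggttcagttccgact
In Rpl27a, Rpl38 and Rps27 the run spanned the annotated start. A run of at least 8 C or T lay within the 30 bases in 25 of the 66 matched genes (37.9%) and in 3205 of 27025 genes with an entry (11.9%). These windows rest on 1 annotated start per gene and were searched on the gene's strand only. A match is a description of letters, not of a working tract.

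The share of UMIs from the 86 genes was higher in CC than in CB in all 4 libraries. In CBs, the dividing cells of the dark zone, it was 17.0% (WT), 16.9% (C), 19.7% (K) and 16.3% (CK), and in CCs, the cells of the light zone, 21.5%, 20.3%, 24.9% and 20.4%. The 2 stages did not overlap, and the mean difference was 4.29 percentage points ± 0.74 (SD, n = 4 libraries). An exact sign-flip permutation test, two-sided, gave p = 0.125, the smallest that 4 libraries allow. Early CBs lay at 18.0% to 21.0% and transitioning cells at 18.7% to 22.3%, between CB and CC within each library. Recycling cells, of which there were only 8 to 49 per library, lay at 20.4% to 24.4%. The share is relative to each cell's other RNA. The median number of ribosomal protein UMIs per cell was 832 (WT), 793 (C), 1005 (K) and 690 (CK) in CBs and 981, 681, 931 and 531 in CCs, so it was higher in CCs in the WT library only. The median total UMIs per cell was 4604 to 5526 in CBs and 2670 to 4741 in CCs. Fewer transcripts of other genes and more of these genes per cell cannot be told apart from shares.

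**Figure D1:**
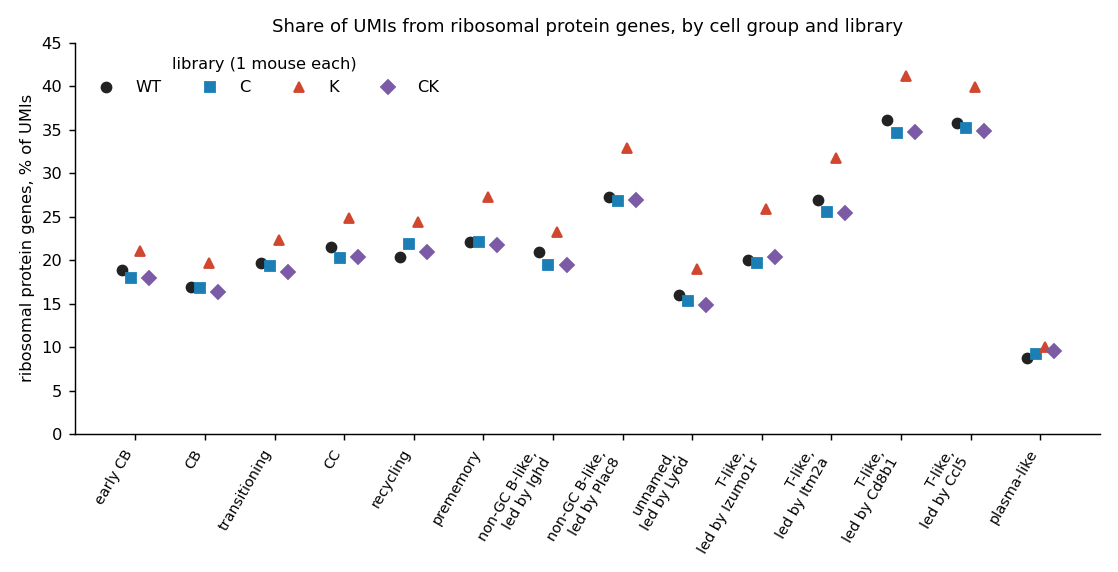
Share of UMIs from ribosomal protein genes (y axis, percent) in each annotated stage and each cluster group (x axis), 1 point per library. CCs lie above CBs in each library, the 4 T-like clusters drawn span 19.7% to 41.2%, and the K library is highest in every group drawn.

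Along the deposited pseudotime, which orders GC B cells from CB to prememory, the share was lowest in the first decile of each library's cells. It was 17.1% (WT), 15.7% (C), 18.3% (K) and 15.7% (CK) there. By the ninth decile it had reached 22.9%, 21.7%, 24.8% and 20.4%. In the last decile it was 26.8% in K and 21.2% in CK, while in WT and C it was 21.5% and 21.0%, below the ninth. Prememory cells made up 72.1% (WT), 67.6% (C), 30.6% (K) and 21.5% (CK) of that last decile, so its makeup differed between libraries. The ribosomal protein UMIs per cell went the other way, with medians between 896 and 1153 in the first decile and between 411 and 749 in the last. Pseudotime and stages were made from the expression of these cells, so the profile is a description and was not tested.

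**Figure D2:**
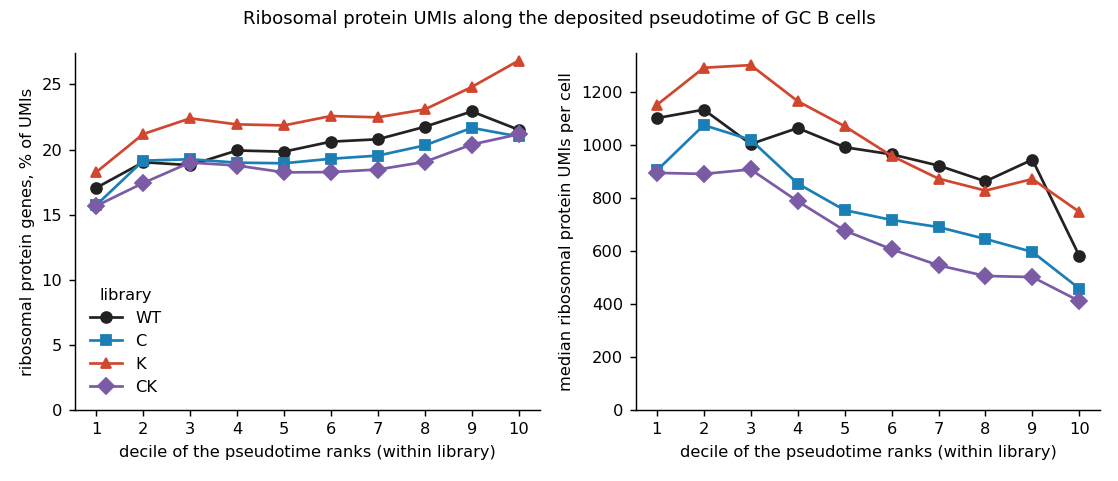
Ribosomal protein genes by decile of the pseudotime ranks within each library (x axis), as percent of UMIs (left) and as median UMIs per cell (right), 1 line per library. From the first to the last decile the share goes up, to between 21.0% and 26.8%, while the UMIs per cell go down, to between 411 and 749.

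Among single genes, 78 of the 83 tested were higher in CC than in CB and 2 were lower, by edgeR's quasi-likelihood test with Benjamini-Hochberg adjustment over all 8983 genes. Among all genes tested, 26.8% were higher and 26.5% lower. The median log2 fold change was 0.38 for the 83 genes and 0.02 for all genes. All tested large subunit genes but Rpl7l1 were higher (48 of 49), as were 30 of 34 small subunit genes. Since stages were assigned from the same cells, these p-values say only that a difference recurred across 4 libraries. Without the library as a block, 34 genes were called higher and 1 lower, beside 1513 and 1528 of all 8983 genes.

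Among the largest increases were those of Rpl37, Rpl36, Rpl12 and Rpl30, all structural proteins of the ribosome. Rpl37 stood at 2533 (WT), 2838 (C), 2480 (K) and 2506 (CK) CPM in CBs and at 3797, 4253, 3985 and 3903 CPM in CCs. All CC values lay above all CB values, with a log2 fold change of 0.71 (SE 0.038, adjusted p = 1.71e-26). The other 3 rose by log2 0.61 to 0.67, higher in 4 of 4 libraries. Rplp1 (log2 0.43), Rplp2 (0.27) and Rplp0 (0.19) encode the acidic stalk proteins that recruit elongation factors, and all 3 were higher in CCs. Rpsa, the small subunit protein also known as the laminin receptor, was higher by 0.27. Rpl5 (0.28) and Rpl11 (0.51), which carry 5S RNA and bind Mdm2 when ribosome assembly fails, were higher too, as were Rps14 (0.30) and Rps19 (0.17), 2 genes known from inherited or acquired anemias.

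The exceptions were few. Rps27l encodes a near copy of Rps27 and is a known p53 target. It stood at 351 (WT), 346 (C), 348 (K) and 358 (CK) CPM in CBs and fell to 196, 226, 258 and 222 CPM in CCs, with no overlap (log2 -0.54, SE 0.061, adjusted p = 5.71e-12). Rps27 itself rose by log2 0.52. Rps19bp1 was lower by log2 -0.30 (adjusted p = 0.0202), a call lost without the K library (adjusted p = 0.142) or the CK library (0.0600) and with doublet calls removed (0.0593). Rps6, whose protein is phosphorylated downstream of mTOR, stood at 531 to 934 CPM in CBs and 513 to 906 CPM in CCs (log2 0.04, adjusted p = 0.576). Rpl7l1 (log2 0.01) was not called either.

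**Figure D3:**
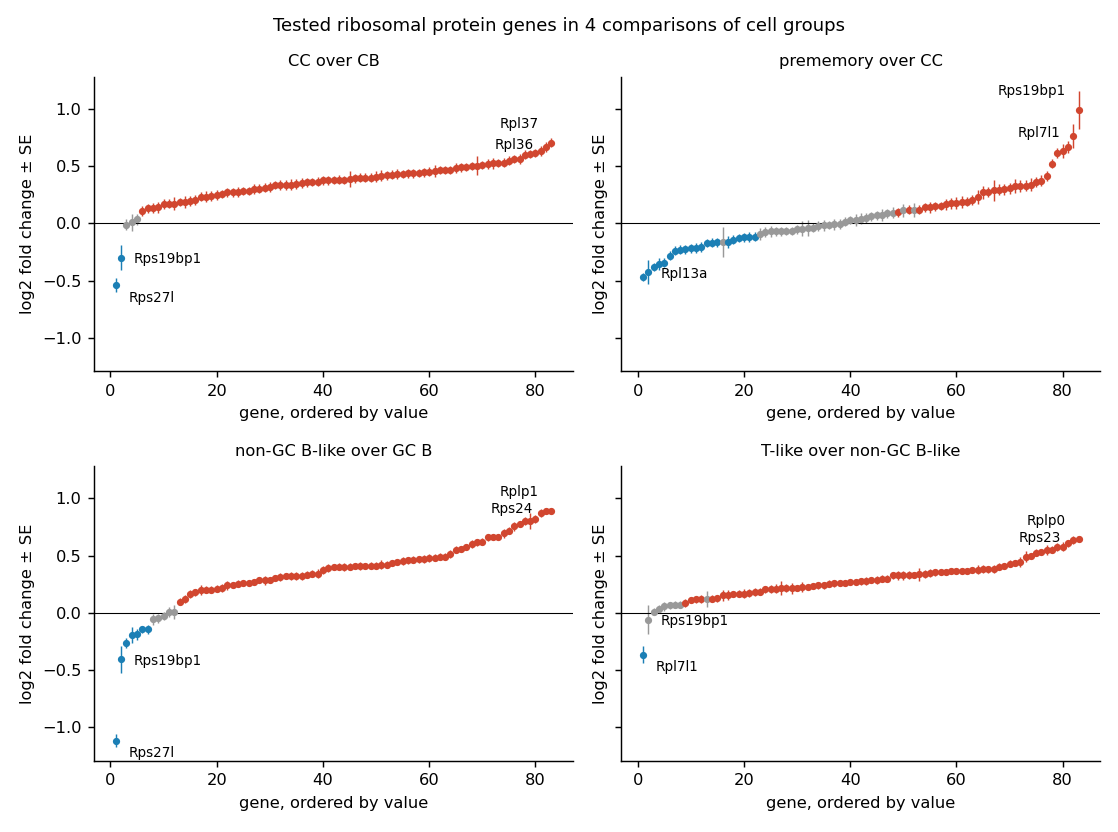
Log2 fold change (y axis, bars ± SE) of each of the 83 tested genes, ordered by value (x axis), in 4 comparisons, with red points higher and blue points lower at adjusted p under 0.05 and grey points not called. In 3 comparisons nearly all points lie above 0, with Rps27l or Rpl7l1 lowest, and in prememory over CC the points lie on both sides.

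T cell transcripts moved with the same stages. The summed CPM of 10 T cell markers was 71.2 to 90.1 in CBs and 179 to 223 in CCs, with 0 to 3 markers at 0 in CBs and 0 or 1 in CCs. Their part in the CC result was not tested. In prememory cells the sum was 83.3 to 169. The summed CPM of 10 markers of B cells outside the GC was 190 to 246 in CBs, 463 to 699 in CCs and 1064 to 1370 in prememory cells, and its part was not tested either.

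From CC to prememory, the stage named for cells leaving the GC toward memory, the share differed less and single genes split. The summed CPM of 7 GC B cell markers was 1761 to 2053 in CCs and 127 to 226 in prememory cells. In the B cells outside the GC described below it was 143 to 179. This comparison therefore also sets cells with GC markers against cells low in them, and the part of that was not tested. The share was 22.1% (WT), 22.1% (C), 27.2% (K) and 21.8% (CK) in prememory cells, above CCs in each library by a mean of 1.55 points ± 0.74 (SD, n = 4; exact sign-flip permutation p = 0.125). As a mean over cells the difference was 0.675 points, and in WT it was -0.094 points by this measure and -0.085 with each cell thinned to 2000 UMIs, so there the direction did not hold in every library. Of the 83 genes 33 were higher, 21 lower and 29 not called, where 18.9% of all genes were higher and 20.2% lower. This split depended on scaling and on the filter. With library size alone it was 47 higher and 12 lower, beside 2067 and 1491 of all 8983 genes. Without a filter on low counts it was 21 higher and 28 lower of 84, beside 1547 and 1917 of all 15799 genes. Without the library block it was 8 and 2, beside 1250 and 1337 of all 8983 genes. Without the C library it was 24 and 18, beside 1322 and 1406 of all 8999 genes.

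The genes at the upper end were not core ribosomal proteins alone. Rps19bp1 was highest, at 30.6 to 38.0 CPM in CCs and 64.2 to 82.6 CPM in prememory cells (log2 0.99, SE 0.170, adjusted p = 1.48e-06). Rpl7l1 followed, at 107 (WT), 113 (C), 109 (K) and 110 (CK) CPM in CCs and 222, 192, 199 and 195 CPM in prememory cells (log2 0.77, adjusted p = 6.61e-09). Neither gene's groups overlapped. Rpl36a (0.67) and Rpl14 (0.61) were also near the top, and Rps6 rose by log2 0.33. At the lower end were Rpl13a (log2 -0.43, lower in 3 of 4 libraries), Rps20 (-0.38), Rps27 (-0.36) and Rpl28 (-0.35). Rps27l rose by 0.29, a call lost without the CK library (adjusted p = 0.0932). Among the stalk genes, Rplp1 (0.36) and Rplp2 (0.27) were higher. Rplp0 (log2 -0.12) and Rpsa (-0.13) were called lower, but with library size alone both stood at -0.02 and neither was called (adjusted p = 0.728 and 0.619).

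Genes for the assembly of ribosomes were counted apart. All 22 listed nucleolar genes were higher in prememory cells than in CCs, with a median log2 fold change of 1.45. Ncl (nucleolin, 1.44), Npm1 (nucleophosmin, 1.17), Nolc1 (1.94) and Gnl3 (nucleostemin, 2.01) had the smallest adjusted p-values. From CB to CC 14 of the 22 were higher and 2 lower, with Gnl3 at 1.24 and Ncl at -0.24. Myc rose at both steps, by log2 2.60 from CB to CC and 1.32 from CC to prememory, and Larp1, the TOP binding protein, stood at log2 -0.12 (adjusted p = 0.424) and rose by 1.22. Of the 12 listed genes of TOP control, Myc and Larp1 among them, 3 were higher and 3 lower in CC over CB, near the shares among all genes, and in prememory over CC these 2 were higher and 0 lower, with 10 not called.

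Factors that work with the ribosome were counted as well. Of 7 elongation factors and their partners, 6 were higher in CCs than in CBs, led by Eef1a1 (0.31) and Eef1g (0.44), and Eif5a was lower (-0.19). Of 31 initiation factors, 9 were higher and 9 lower, near the 26.8% and 26.5% of all genes, with Eif3f at 0.48 and Eif4g2 at -0.67. Fau (0.54) and Rack1 (0.29), ribosomal proteins with other names, were higher. The mitochondrial ribosome has its own proteins, encoded by Mrps and Mrpl genes, and 11 of 77 tested were higher and 30 lower (median log2 -0.15), among them Mrps18a (-1.08) and Mrpl18 (-0.87). In prememory cells over CCs 23 were higher and 7 lower, where 18.9% of all genes were higher and 20.2% lower.

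The cells named here as B cells outside the GC gave a larger share of their UMIs to these genes than annotated GC B cells did. The unannotated cells of 2 clusters, in which 6 and 5 of 10 markers of B cells outside the GC counted, were grouped as non-GC B-like. They held 25.1% (WT), 24.0% (C), 28.8% (K) and 23.5% (CK), against 19.99%, 19.1%, 22.1% and 18.3% in all annotated GC B cells. The difference was 5.503 points ± 0.84 (SD, n = 4; exact sign-flip permutation p = 0.125), in the same direction in 4 of 4 libraries. It was uneven within the class. The cluster led by Plac8, with Cr2, Cd38, Cd1d1 and Fcrl5 among its leading genes, lay at 26.8% to 32.9%. The cluster led by Ighd, with Fcer2a and Fcmr among its leading genes, lay at 19.5% to 23.2%. A further B cell cluster, led by Ly6d, stayed unnamed, because 4 of 10 markers of the class counted in it, and lay at 14.9% to 19.0%, below annotated GC B cells. It held 1036 (WT), 1734 (C), 945 (K) and 1389 (CK) unannotated cells, against 783, 1489, 432 and 670 in the class. With it added to the class the difference was 0.648 points. As a mean over cells the class then held 19.2% (WT), 18.4% (C), 21.0% (K) and 17.0% (CK). That was below annotated GC B cells in each library, which held 19.8%, 19.0%, 22.0% and 18.2% by this measure. Non-GC B-like cells had medians of 1455 to 2596 UMIs and 306 to 601 ribosomal protein UMIs per cell, against 3653 to 4931 and 632 to 1012 in GC B cells. Unannotated cells of GC B-like clusters, with medians of 9546 to 11426 UMIs, held 20.1% to 23.5%.

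Of the 83 genes 71 were higher in non-GC B-like than in annotated GC B cells and 7 lower, against 33.8% and 28.6% of 10756 genes (medians log2 0.40 and 0.08). The largest increases were in Rplp1, Rps24, Rpl36, Rpl38 and Rps27rt. Rplp1 rose from 2016 (WT), 1809 (C), 2488 (K) and 1666 (CK) CPM to 3723, 3058, 4491 and 2900 CPM (log2 0.89, SE 0.030, adjusted p = 1.35e-14), with no overlap between the groups. Rps24 was higher by the same log2 0.89. The lowest was again Rps27l, which fell from 268 to 342 CPM in GC B cells to 122 to 155 CPM (log2 -1.12, SE 0.060, adjusted p = 7.17e-12). Rps19bp1 (-0.41), Rpl7l1 (-0.20), Rpl36al (-0.19), Rpl28 and Rpl4 were also called lower. Rps6 (log2 -0.06) and Rpl5 (-0.03) were not called. With the Ly6d cluster added, 34 genes were higher and 22 lower, near the proportions over all genes (4206 and 3281 of 10840). The median log2 fold change was then 0.05 for the 83 genes and 0.11 for all genes. Without the library block 37 were higher and 2 lower, beside 2932 and 2547 of all 10756 genes. The summed CPM of 4 erythroid markers moved with the comparison in WT (5.44 in GC B and 1331 in non-GC B-like cells) and C (411 and 1098), but was 2.21 and 3.68 in K and 4.28 and 8.66 in CK, and its part in the result was not tested.

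Mitochondrial ribosomal proteins and initiation factors were mostly lower in this comparison. Of the mitochondrial ribosomal protein genes, 60 of 77 were lower in non-GC B-like cells and 2 higher (median log2 -0.43), with Mrpl18 at -1.30 and Mrpl4 at -1.06. Of 31 initiation factors 25 were lower and 1 higher. Eif1ax fell by 1.21 on the log2 scale, Eif2s1 by 0.99 and Eif4a1 by 0.67, while Eif4a2 was higher by 0.81. Of the 22 nucleolar genes 7 were lower, near the 28.6% of all genes, and 3 higher. Of the 7 elongation factors 6 were higher and Eif5a lower (-0.51).

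T-like cells had the highest share of the classes named here, and their clusters differed widely. They held 31.1% (WT), 31.0% (C), 35.7% (K) and 30.02% (CK), above non-GC B-like cells by 6.58 points ± 0.48 (SD, n = 4; exact sign-flip permutation p = 0.125). Clusters led by Cd8b1 (34.6% to 41.2%) and Ccl5 (34.8% to 39.9%), with cytotoxic T cell genes among their leading genes, and a small one led by Ifit3 (33.6% to 41.1%) were at the top. The cluster led by Itm2a lay at 25.5% to 31.7%. The cluster led by Izumo1r, with Maf, Tnfrsf4, Pdcd1 and Tbc1d4 among its leading genes, all known from helper and regulatory T cells, lay at 19.7% to 25.9%, below non-GC B-like cells. The Izumo1r cluster alone gave a difference of -3.85 points, and T-like cells without it one of 10.03 points.

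Single genes followed. In the whole T-like class 74 of 83 genes were higher than in non-GC B-like cells and only Rpl7l1 was lower (log2 -0.37, adjusted p = 0.000307), against 25.4% higher and 25.2% lower of all genes. With the Izumo1r cluster alone 1 gene was higher and 79 lower, beside 2282 and 2257 of all 9548 genes. With that cluster left out 81 were higher and 0 lower, beside 3313 and 2347 of all 10359 genes. Without the library block 16 were higher and 1 lower, beside 1993 and 2101 of all 10756 genes. The 16 of 83 higher lay near the proportion over all genes. Rplp0 rose most, from 4314 (WT), 3421 (C), 5010 (K) and 3379 (CK) CPM to 6658, 5603, 7783 and 5535 CPM (log2 0.64, SE 0.029, adjusted p = 2.71e-13), and the groups did not overlap. Rps23 (0.64), Rps15a (0.61), Rpl5 (0.58) and Rpl12 (0.57) were next, and Rplp2 (0.55), Rplp1 (0.53) and Rpsa (0.50) were near them. Rps12 (0.01), Rps9 (0.03), Rpl10 (0.06) and Rps19bp1 (-0.06) were among the 8 genes not called. All 7 elongation factors and partners were higher as well, with Tpt1 at 0.75 and Eef1b2 at 0.56.

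Plasma-like cells, which make antibody, had 44.1% to 50.1% of their UMIs from immunoglobulin genes and 8.73% (WT), 9.27% (C), 9.98% (K) and 9.55% (CK) from the 86 genes. Without immunoglobulin and mitochondrial genes in the total the latter were 17.8%, 17.4%, 20.9% and 17.8%. Natural killer-like cells lay at 22.0% to 27.7% and plasmacytoid dendritic-like cells at 16.9% to 22.5%. The balance of subunits hardly moved, since small subunit genes gave 44.4% to 48.1% of the ribosomal protein UMIs in all stages and named classes.

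Pairs of like-named genes did not keep a fixed ratio. Rps27l gave 25.4% (WT), 28.8% (C), 18.8% (K) and 33.6% (CK) of the UMIs of Rps27 and Rps27l in CBs, 11.5%, 17.5%, 11.6% and 18.0% in CCs, and 5.80%, 9.001%, 5.325% and 8.96% in non-GC B-like cells. In plasma-like cells it gave 43.3%, 53.4%, 44.5% and 57.9%, the highest of all groups. Rpl36al, an intronless copy of Rpl36a, gave 33.6% to 38.1% of its pair in CBs, 32.1% to 34.2% in CCs, 22.7% to 24.7% in prememory cells, 21.2% to 22.5% in non-GC B-like cells and 52.5% to 61.5% in plasma-like cells. Rpl22l1, a paralog of Rpl22, stayed within 19.9% and 28.7% in all of these groups. Rpl39l, known from the testis, had 0 to 2 UMIs per library in CBs, beside 2566 to 12189 in the pair. The copies share sequence, and many ribosomal protein genes have processed pseudogenes, so reads could be divided or dropped in counting.

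**Figure D4:**
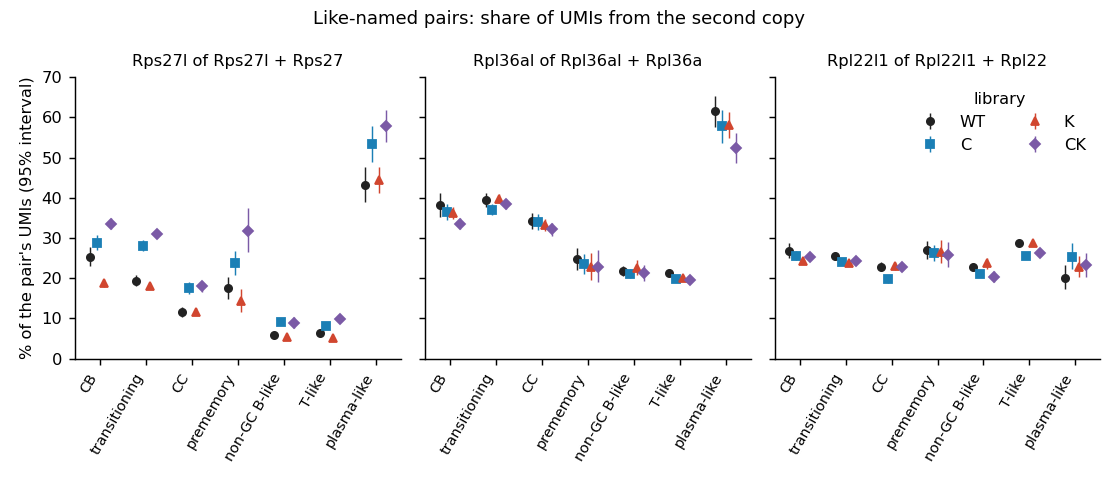
Percent of a pair's UMIs from its second copy (y axis) by cell group (x axis), 1 point per library with its 95% exact binomial interval, which covers counting error only. Rps27l and Rpl36al are lowest in non-GC B-like and T-like cells and highest in plasma-like cells, and Rpl22l1 stays between 19.9% and 28.7%.

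Between genotypes, the K library had a higher share than the WT library in every stage and class compared, while C and CK lay on either side of WT. In CBs the share of the K library was 1.16 times that of WT (95% interval 1.15 to 1.17). The C library stood at 0.994 times WT (0.988 to 0.9996) and the CK library at 0.963 times (0.958 to 0.969). In CCs the K library stood at 1.16 (1.15 to 1.16), the C library at 0.943 (0.939 to 0.948) and the CK library at 0.948 (0.944 to 0.952). The intervals cover counting error between 2 libraries, not variation between mice. The K over WT ratio was 1.15 in T-like and 1.15 in non-GC B-like cells, and it ranged from 1.11 to 1.26 over the stages and classes compared. The C over WT ratio lay between 0.943 and 1.06, and that of CK between 0.914 and 1.09, with plasma-like cells at the upper end of both. The lowest CK value is that of all annotated GC B cells pooled, whose stages differ in number between libraries. Within the single stages compared CK lay between 0.948 and 0.986 times WT. The few recycling cells were left out of these ratios, and their share was 20.4% in WT and 20.9% in CK. Divided by the ratio in T-like cells, the K ratio was 1.01 in both CBs and CCs, the CK ratio 0.997 and 0.981, and the C ratio 0.996 and 0.945.

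Genes that reached 100 UMIs in the pair of libraries were counted where the log2 ratio of CPM lay beyond 0.32 in either direction. By this limit 20 of 83 genes were past the limit upward and 1 downward in K over WT in CBs, where 13% of all genes were past it upward and 29.6% downward. In CCs 21 were upward and 0 downward (10.6% and 29.5% of all genes). In CK over WT 1 was upward and 7 downward in CBs (18.8% and 19.4%), and 0 and 9 in CCs (12.8% and 9.61%). In C over WT they were 1 and 5 in CBs (13.2% and 12.3%), and 0 and 12 in CCs (9.45% and 7.41%). In T-like cells, K over WT had 16 upward and 0 downward (4.46% and 36.6%), C over WT 0 and 4 (4.9% and 8.38%), and CK over WT 0 and 6 (5.59% and 8.17%). In non-GC B-like cells the K library had 17 and 0 (10.2% and 33.3%), the C library 0 and 11 (8.34% and 7.5%), and the CK library 0 and 16 (10.4% and 11.5%). Centred on the median of all genes, the K library had 48 upward and 0 downward in T-like cells, beside 1132 and 1888 of 7327 genes. In non-GC B-like cells it had 42 and 0, beside 795 and 1098 of 4090 genes. After subtraction of each gene's log2 ratio in T-like cells, 0 genes lay upward and 1 downward for C in CBs (13.1% and 13.4% of all genes), 1 and 1 for K (17.8% and 11.7%) and 0 and 1 for CK (16.8% and 19.4%). In CCs they were 0 and 0 for C (11.5% and 7.07%), 0 and 0 for K (13.3% and 8.85%) and 1 and 0 for CK (11.8% and 9.41%). In C in CCs 13 of 83 genes lay above their T-like ratio, with a median difference of -0.08 against 0.02 for all genes, and in CK 28 of 83, with a median of -0.04. In K 46 of 83 did, with a median of 0.01.

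In K over WT the largest ratios in CBs were those of Rps27 (log2 0.54, 95% interval 0.44 to 0.64), Rpl37a (0.52) and Rps29 (0.51), and in CCs those of Rps29 (0.54), Rps6 (0.50) and Rps18 (0.50). Rps29 stood at 1080 (WT) and 1539 (K) CPM in CBs, 1191 and 1737 in CCs, and 1968 and 2900 in T-like cells. The lowest were Rpl7l1 (log2 -0.47, interval -0.76 to -0.17), Rps19bp1 (-0.19) and Rpl37 (-0.03) in CBs, and Rps7 (-0.05), Rps10 (0.01) and Rpl7l1 (0.03) in CCs. In CK over WT the lowest were Rps27rt, Rps27 and Rps28 in CBs and Rps27rt, Rps27 and Rpl13a in CCs. Rps27 stood at 1033 (WT), 854 (C), 1504 (K) and 708 (CK) CPM in CBs, 1501, 1066, 1959 and 1013 in CCs, and 2203, 1822, 3206 and 1618 in T-like cells, the same order in each. Rps27rt, a near-identical retrocopy that can take or lose reads of Rps27, had CK over WT log2 ratios of -0.91 in CBs, -0.75 in CCs and -0.96 in T-like cells. Among the highest were Rps27a (0.18) and Rpl18 (0.16) in CBs and Rps19bp1 (0.31, interval -0.17 to 0.81) and Rpl18 (0.18) in CCs.

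**Figure D5:**
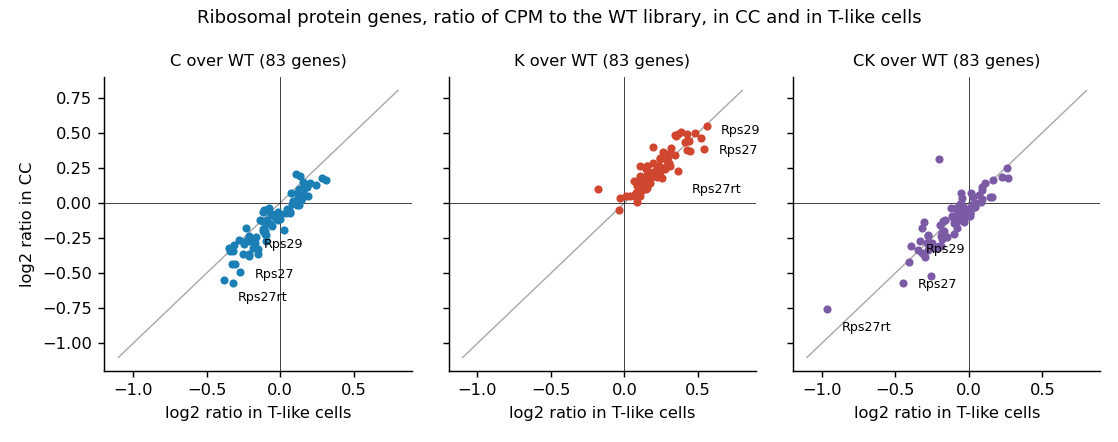
Log2 ratio of CPM to the WT library of each of 83 genes in CCs (y axis) against that in T-like cells (x axis), 1 panel per mutant library, with the diagonal in grey. Of the points, 70 of 83 lie on or below the diagonal in C and 55 of 83 in CK, while K points are mostly above 0 and Rps27rt and Rps27 are low in CK.

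Transcript length moved with the K library in the 4 cell groups examined (CBs, CCs, non-GC B-like and T-like cells). In CCs the median log2 ratio of K over WT was 0.18 for the other genes with principal transcripts of up to 1000 bases, 0.10 for those up to 2000 bases, -0.12 for those up to 4000 bases and -0.51 for longer ones. The 83 genes, with a median length of 878 bases, had a median of 0.21. In T-like cells the medians were 0.14, 0.05, -0.20 and -0.54, and 0.20 for the 83 genes. In CK over WT in CCs the medians from short to long were 0.16, 0.06, 0.03 and 0.00, and -0.10 for the 83 genes, and in C over WT 0.09, 0.03, 0.02 and 0.01, and -0.10. Length was not tested as a part of any genotype difference.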

How the data were processed

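The authors sorted B220+IgD- cells from 1 spleen per genotype, made 10x 3' libraries and counted UMIs with Cell Ranger (version 3.0 per the labels, with mm10). Cell Ranger keeps reads that map to 1 gene. The deposited matrices hold raw UMI counts of 31053 genes per barcode. Stages and pseudotime ranks came from the deposited cell table, for which the authors transferred stage labels from other data in Seurat (4.0 per the labels) and ordered GC B cells with slingshot. The deposited rank is a score of order, used within each library only. Its totals per cell and signature scores were not used here.

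Barcodes under 8% mitochondrial UMIs were clustered in scanpy 1.11.5 (2000 variable genes, 30 components, 15 neighbours, 21 clusters) without the genes studied. A marker counted where its CPM reached 0.25 of its highest cluster, and a name needed 3 markers and 50% of its class. Unnamed clusters held 15.1% to 21.4% of barcodes per library. Scrublet called 3.32% to 5.01% doublets, which were kept in the main values. Counts were summed per library and cell type (at least 20 cells) and tested in edgeR 4.0.16 (quasi-likelihood, TMM, filterByExpr, library as a block, adjusted p under 0.05) or, as an alternative, DESeq2 1.42.0. A fold change is on the log2 scale of fitted counts. On simulated counts of the CC over CB comparison (8919 genes), 93% of genes changed by log2 1 were recovered, and for prememory over CC (8929 genes) 64%. The same mouse gives both cell types, so the library pairs the sums. Shares were compared by exact sign-flip tests. Intervals are exact binomial or conditional binomial at 95% and cover counting error only. Versions of R (4.3.3), Python (3.11.15), numpy (2.4.6), scipy (1.17.1), pandas (2.3.3), igraph (0.11.9), leidenalg (0.10.2) and matplotlib (3.10.9) were fixed.

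The genes studied, the gene lists, markers and tests were chosen with earlier results of these data known, and the 0.25 level was set after clusters had been seen. Genes named are those with special names or like-named copies, Rps6, Rpl5, Rpl11, Rps14 and Rps19, the 5 largest and 5 smallest differences per comparison, the 3 largest and 3 smallest K and CK ratios, up to 5 genes that moved against the majority, and in other lists up to 4 with the smallest adjusted p in CC over CB. Other genes named from those lists or comparisons were chosen after their values were seen. Positions and transcript lengths come from GENCODE vM21 and RefSeq on GRCm38. Some genes that the naming rule selects are not reported here.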

Additional observations from a re-analysis of the deposited data

How the results depend on the processing

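The CC minus CB share difference was 4.29 to 4.76 points under the 5 other settings of counting and 3.99 to 4.58 without each library in turn. The other ranges without a library were 1.27 to 1.86 for prememory minus CC, 5.09 to 5.71 for non-GC B-like minus GC B and 6.42 to 6.79 for T-like minus non-GC B-like. As a mean over cells these 3 were 0.675, 4.14 and 7.41. With cells thinned to 2000 UMIs the last 2 were 7.55 and 5.43, against 5.503 and 6.58 unthinned. Thinning left out 99 to 1620 T-like and 194 to 865 non-GC B-like cells per library. Those were 1620 of 3161 T-like cells in CK, and 865 of 1489 (C) and 511 of 670 (CK) non-GC B-like cells at the most. The thinned values therefore describe only the cells with at least 2000 UMIs. Without immunoglobulin and mitochondrial genes the T-like minus non-GC B-like difference was 6.05. With the Ly6d cluster counted in the non-GC B-like class the differences became 0.648 and 11.4. The Izumo1r cluster alone gave -3.85 and T-like cells without it 10.03; the settings with single clusters, and those with annotated plus GC B-like cells, were chosen after seeing the data.

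Both cell types of a comparison come from the same mouse, so the library pairs them. Without this replicate block the genes called higher and lower were 34 and 1 (CC over CB), 8 and 2 (prememory over CC), 37 and 2 (non-GC B-like over GC B) and 16 and 1 (T-like over non-GC B-like). Over all genes they were then 1513 and 1528, and 1250 and 1337, of 8983, and 2932 and 2547, and 1993 and 2101, of 10756. Without each library in turn the counts among the 83 genes were 74 to 77 and 1 to 2, 24 to 38 and 16 to 21, 67 to 71 and 6 to 8, and 70 to 74 and 1. Over all genes they were 1902 to 2238 and 2064 to 2389, and 1322 to 1621 and 1406 to 1672, of 8999 to 9063. For the last 2 they were 2728 to 3349 and 2829 to 3153, and 2306 to 2602 and 2231 to 2531, of 10738 to 10852. With doublet calls removed 1 gene was lower in CC over CB, beside 2192 of all 8882 genes. In prememory over CC 12 were lower with library size alone, beside 1491 of all 8983 genes. Without a filter on low counts 21 were higher and 28 lower there, beside 1547 and 1917 of all 15799 genes. Against all cells of GC B-like clusters 14 genes were lower in non-GC B-like cells, beside 3521 of all 10774 genes. Against annotated plus GC B-like cells 13 were lower, beside 3437 of all 10768 genes. With the Ly6d cluster added 34 were higher and 22 lower, near the proportions over all genes (4206 and 3281 of 10840). With the Izumo1r cluster alone 1 gene was higher and 79 lower in T-like cells, beside 2282 and 2257 of all 9548 genes. With that cluster left out 0 were lower, beside 2347 of all 10359 genes. Where no other value shows it, the cause was not tested. Under the alternatives of scaling, filter, tool, library block, doublet removal and left-out libraries, 627 values of named genes kept their side of the threshold. Of the others 58 lost the call and 5 gained one, and 0 called values changed sign. Changes of sign in values called under neither setting were not counted. Single genes were not tallied under the settings that change the clusters.

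Divided by the ratio in T-like cells, the share ratios to WT were 0.996 (C), 1.01 (K) and 0.997 (CK) in CBs and 0.945, 1.01 and 0.981 in CCs. Divided by the non-GC B-like ratio, the results were 1.04 (C), 1.01 (K) and 1.03 (CK) in CBs and 0.989, 1.01 and 1.01 in CCs. Centred on the median of all genes, 35 genes were past the log2 limit of 0.32 for K in CBs, 32 for K in CCs and 16 for CK in CCs. At 1.5-fold 0 (C), 0 (K) and 1 (CK) were past the limit in CBs and 0, 0 and 1 in CCs. At this fold all genes in CBs gave 156 upward and 79 downward (C), 195 and 750 (K) and 455 and 318 (CK). These were of 3987, 4678 and 5576 genes. In CCs they gave 57 and 42 (C), 88 and 741 (K) and 119 and 81 (CK), of 4263, 4447 and 4861. After subtraction of the T-like ratio 1, 2 and 1 remained in CBs and 0, 0 and 1 in CCs.

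With 1 mouse per genotype no difference between genotypes can be told from one between mice or libraries. Recycling and plasma-like cells were few, and genes under 100 UMIs over a pair of libraries, such as Rpl39l, were not compared.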
